A study of Homo sapiens with 12 samples.

Results

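The genes described here are 45 genes of DNA replication and S phase, chosen by name: 17 of origin licensing and the replicative helicase, 20 of the sliding clamp, its loader, the polymerases and the lagging strand, 4 of nucleotide supply and 4 of S-phase control. Of these, 44 matched a gene ID of a table that holds 57773 IDs, and UHRF1 is named only. All 44 reached a mean of at least 10 normalised reads in the libraries of each comparison, so none was lost to the filter on low values. RNA was sequenced from HEK293 cells and from the extracellular vesicles (EVs) that these cells release, as 3 libraries for each of 4 groups: hypoxia EVs, normoxia EVs, hypoxia cells and normoxia cells. HEK293 is a human embryonic kidney line that carries adenovirus E1A, a protein known to bind the RB protein and to release E2F factors from it. All 4 groups had been transfected for 48 hours with the vectors that the labels call 4EC1 and describe as eGFP-EIF4E-C-YTHDF1/GBP1-CD9, so no group shows untransfected cells. The hypoxia groups had spent 24 hours in a hypoxia chamber, at an oxygen level that the labels do not give; the chamber step is written on the normoxia samples' labels too. The labels give TRIzol for the RNA of cells and the ExoRNeasy kit for that of EVs, so the kind of sample and the way of extraction cannot be told apart. Cells were grown in DMEM with 10% FBS, and the labels do not say whether the serum had been cleared of vesicles. Nothing in the labels says that replicates came from separate cultures, so the p-values measure the spread between these libraries, which may be technical.

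Before a cell copies its DNA, the origin recognition complex, CDC6 and CDT1 load the MCM2 to MCM7 ring onto origins, and geminin (GMNN) blocks CDT1 once S phase has begun. CDC45 and the GINS complex then turn the ring into a moving helicase, the primase and polymerase alpha lay down primers, and polymerases delta and epsilon extend them on the PCNA clamp that replication factor C loads. FEN1 and LIG1 trim and seal the lagging strand, while ribonucleotide reductase, thymidylate synthase and thymidine kinase supply deoxynucleotides. Many of these genes are transcribed late in G1 and in S phase by E2F factors, which the cyclin E partners of CDK2 help to release, and their mRNA level is therefore widely used as a readout of proliferation.

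The cell libraries held 18059381 to 23400813 reads, the hypoxia EV libraries 3259453 to 6129782 and the normoxia EV libraries 5266244 to 7001767. Read density over 356 olfactory receptor genes, taken as silent without a check of each gene, was used to measure background. It averaged 1.03 RPKM (reads per kilobase scaled to library depth) in hypoxia EVs and 0.263 in normoxia EVs. In cells it averaged 0.0712 in hypoxia and 0.0471 in normoxia. Among normoxia EV libraries it was 0.104, 0.201 and 0.483, so replicate 3 stood apart. The 6 matched of 7 HEK293 markers were above 0 in every library, among them IRS4 at 4750.3 ± 81.3 in hypoxia cells and 9274 ± 65.8 in normoxia cells (SD, n = 3 each). In EVs a value above 0 does not by itself set a gene apart from background. All 12 blood and plasma genes searched were also above 0 in hypoxia EVs replicates 2 and 3. The summed level of 12 blood and plasma genes was 639 in hypoxia EVs and 248 in normoxia EVs, against 64.1 in hypoxia cells and 49.5 in normoxia cells. All 9 tested genes of a hypoxia list, VEGFA and LDHA among them, were higher in hypoxia cells than in normoxia cells. Over 10 such genes the EVs gave log2 fold changes of -0.93 to 0.38, with a median of 0.10.

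The 44 members together took 0.374% of reads in hypoxia EVs and 0.402% in normoxia EVs, against 0.547% in hypoxia cells and 0.583% in normoxia cells. Leaving the 10 most abundant genes of each library out of the total gave 0.518% in hypoxia EVs and 0.612% in normoxia EVs. On that basis the shares were 0.630% in hypoxia cells and 0.660% in normoxia cells, so the gap was narrower. In cells the members spanned a wide range per kilobase of transcript. MCM3 stood highest in normoxia cells at 1568 ± 124 normalised reads per kilobase, with MCM4 at 1486 ± 87.6 and MCM7 at 1433 ± 57.2, levels that did not differ beyond their SDs (n = 3 each). CCNE2, a cyclin E gene, stood lowest at 36.8 ± 7.98 per kilobase, below POLE2 at 115 ± 16.3, the second subunit of polymerase epsilon. E2F1, the transcription factor itself, held 148 ± 7.21 per kilobase, and the origin protein ORC1 215 ± 14.1. PCNA (1252 ± 73.8) and the 6 ring subunits, of which MCM5 was lowest at 560.3 ± 40.3, stood above E2F1, CCNE1 (163 ± 16.0) and CCNE2, while GINS3 (188 ± 11.3) and GINS4 (146 ± 12.3) of the helicase were near E2F1 and CCNE1.

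In hypoxia cells, much of the replication machinery was lower than in normoxia cells. Of 44 members, 25 were lower, among them all 6 subunits of the MCM ring, the clamp PCNA, and the ribonucleotide reductase subunits RRM1 and RRM2. LIG1 and TK1 went the other way and were higher. The changes were small, with the most negative log2 fold change at -0.64 for RPA3 and a median over the members of -0.23. Over all 17260 genes tested, 22.4% were lower and 8.01% higher at an adjusted p under 0.05 (limma), with a median log2 fold change of -0.07. Among 9897 protein-coding genes of mean at least 100, 36.2% were lower and 7.65% higher, with a median of -0.14. The groups of libraries did not overlap for 28 members on the lower side and 2 on the higher side, which 27.6% and 12.7% of all genes also showed. When every library was scaled to the same total, which put the median of all genes at 0.06, 16 members were lower and 5 higher, namely LIG1, TK1, POLA1, CDC6 and POLE. The 9 members that lost their call there were MCM4, CDC45, GINS4, RPA2, POLD2, PRIM1, RRM1, TYMS and CCNE1. The counts with equal totals were not set against the share of all genes called at that scaling. In a fit that shared the spread of all 12 libraries, EVs included, no member passed in either direction. In bulk RNA, a smaller share of cells in S phase and less of these mRNAs per cell cannot be told apart.

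**Figure D1:**
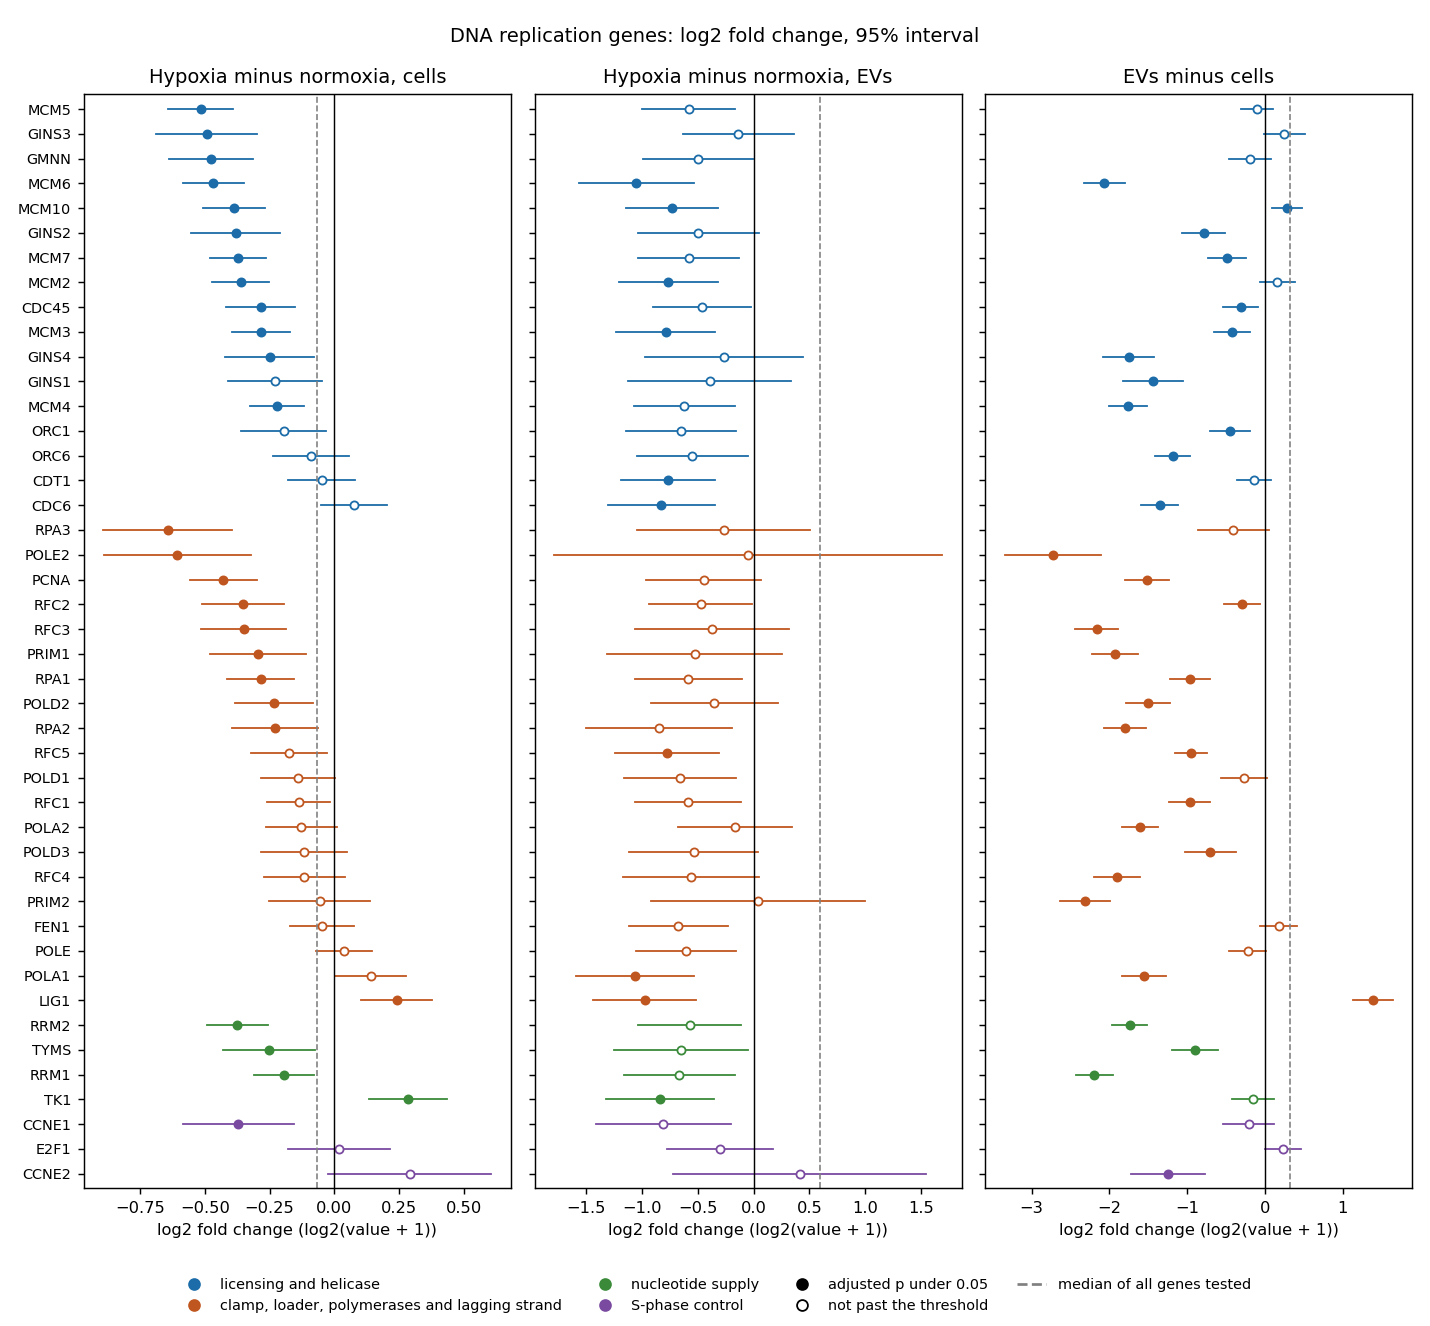
Log2 fold change on the log2(value + 1) scale of 44 replication genes (points, with 95% intervals as lines) for hypoxia minus normoxia in cells, hypoxia minus normoxia in EVs and EVs minus cells, coloured by role; filled points passed an adjusted p of 0.05 and the dashed line is the median of all genes tested. In cells most points lie left of 0, and of the points on the right only LIG1 and TK1 are filled. In EVs the intervals are wider. Between EVs and cells the members spread from -2.72 for POLE2 to 1.39 for LIG1.

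Of the 17 licensing and helicase genes, 12 (70.6%) were lower in hypoxia cells and none was higher, against 36.2% and 7.65% of protein-coding genes of mean at least 100. MCM5, a subunit of the ring (chr22:35400063-35425430, plus strand, GRCh38), was at 1382, 1428 and 1337 normalised reads in hypoxia cells, against 2103, 1824 and 2013 in normoxia cells. The groups did not overlap, and the log2 fold change was -0.52 ± 0.06 (SE, limma adjusted p = 1.48e-09). MCM6 (chr2:135839626-135876426, minus strand, GRCh38) was at 1759, 1681 and 1637 in hypoxia cells, against 2282, 2307 and 2433 in normoxia cells. Each hypoxia library lay below each normoxia library, at -0.47 ± 0.06 (limma adjusted p = 4.82e-09). MCM7 was at 3397, 3241 and 3186 in hypoxia cells and at 4285, 4050.1 and 4378 in normoxia cells, again without overlap (-0.37 ± 0.06, limma adjusted p = 1.52e-07). MCM2, MCM3 and MCM4 fell by 0.36, 0.28 and 0.22 on the log2 scale. All 6 ring subunits kept a negative fold change under every alternative tried, but MCM4 did not pass with equal totals and none of the 6 passed in the fit of all 12 libraries (limma adjusted p from 0.148 for MCM5 to 0.745 for MCM4).

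The factors that start and move the ring were lower with it. MCM10, which joins the helicase at firing, was at 1721, 1586 and 1596 in hypoxia cells, against 2133, 2082 and 2196 in normoxia cells, with no overlap (-0.39 ± 0.06, limma adjusted p = 7.06e-07). GINS3, of the GINS complex, was at 318, 291 and 302 in hypoxia cells and at 423, 406 and 456 in normoxia cells (-0.49 ± 0.10, limma adjusted p = 5.75e-05). GINS2 and GINS4 of the same complex fell by 0.38 and 0.25 on the log2 scale, and CDC45 fell by 0.28. GINS1 was at -0.23 with a limma adjusted p of 0.0501 and did not pass. GMNN, the inhibitor of CDT1, was at 679.9, 558 and 542 in hypoxia cells, against 782, 818 and 868 in normoxia cells, and its groups stood apart (-0.48 ± 0.08, limma adjusted p = 3.97e-06).

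The loading factors themselves did not pass the test in cells on the deposited scale, though CDC6 passed as higher with equal totals (0.20, limma adjusted p = 0.0105). CDC6, the ATPase that brings MCM2 to MCM7 to the origin complex, was at 1459, 1395 and 1428 in hypoxia cells and at 1312, 1395 and 1359 in normoxia cells. The groups overlapped, and the log2 fold change was 0.07 ± 0.07 (limma adjusted p = 0.426). CDT1, its partner, was at -0.05 ± 0.07, ORC6 at -0.09 ± 0.07 and ORC1 at -0.20 ± 0.08. Within a library, the per-kilobase ratio of CDT1 to GMNN was 0.785, 1.03 and 0.965 in hypoxia cells, against 0.702, 0.656 and 0.696 in normoxia cells. The ratio of CDC6 to MCM5 was 0.776, 0.718 and 0.784 in hypoxia cells and 0.459, 0.562 and 0.496 in normoxia cells. Such ratios do not depend on how libraries are scaled. These pairs were chosen after their values were seen, so no test is given.

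Among the 20 genes of the clamp, loader, polymerases and lagging strand, 9 (45%) were lower and 1 (5%) was higher in hypoxia cells, with a median of -0.16. Of protein-coding genes of mean at least 100, 36.2% were lower and 7.65% higher, with a median of -0.14, so this role lay near the background. RPA3, the smallest subunit of the single-strand binding protein RPA (chr7:7636518-7718607, minus strand), was at 161, 155 and 208 in hypoxia cells, against 277, 246 and 293 in normoxia cells. The groups did not overlap (-0.64 ± 0.13, limma adjusted p = 4.43e-05), and RPA1 and RPA2 fell by 0.29 and 0.23 on the log2 scale. POLE2 was at 124, 119 and 160.0 in hypoxia cells and at 236, 202 and 178 in normoxia cells, whose lowest library lay above the highest of hypoxia (-0.61 ± 0.14, limma adjusted p = 0.000666). POLE, the catalytic subunit of the same polymerase, was at 0.04 ± 0.05 and did not pass. PCNA was at 1283, 1199.7 and 1305 in hypoxia cells, against 1659, 1629 and 1815 in normoxia cells, without overlap (-0.43 ± 0.07, limma adjusted p = 2.91e-07). PCNA has annotated pseudogenes, so reads could be split between near-identical copies, and the same holds for RRM2, RPA2, TYMS, RFC3, RFC5, POLD2 and FEN1.

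The loader and the polymerases were divided. RFC2 and RFC3 of replication factor C fell by 0.35 each on the log2 scale, while RFC1, RFC4 and RFC5 did not pass (-0.14, -0.12 and -0.18). The primase subunit PRIM1 fell by 0.29 and PRIM2 was at -0.06. POLD2, of polymerase delta, fell by 0.23, and POLD1, POLD3, POLA1 and POLA2 did not pass, with values between -0.14 and 0.14. POLA2 overlaps another gene on the same strand over 35.1% of its exons. FEN1, the flap nuclease, was at -0.05 ± 0.06. LIG1, the ligase that seals Okazaki fragments (chr19:48115445-48170603, minus strand, GRCh38), was at 1151, 1395 and 1319 in hypoxia cells, against 1078, 1113 and 1067 in normoxia cells. All hypoxia libraries lay above the normoxia libraries, by 0.24 ± 0.07 (limma adjusted p = 0.00547). Without hypoxia cells replicate 2, neither LIG1 nor TK1 passed.

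Of the 4 nucleotide supply genes, 3 were lower and TK1 was higher, against 36.2% and 7.65% of protein-coding genes of mean at least 100. RRM2, the S-phase subunit of ribonucleotide reductase, was at 1837, 1967 and 2034 in hypoxia cells, against 2509, 2445 and 2611 in normoxia cells. The groups stood well apart (-0.37 ± 0.06, limma adjusted p = 8.35e-07), though 20.2% of the RRM2 exon length is shared with another gene on the same strand. RRM1 fell by 0.19 and TYMS by 0.25 on the log2 scale, and TYMS overlaps antisense genes over 46.6% of its exons. With equal totals RRM2 stayed lower, while RRM1 and TYMS did not pass (limma adjusted p = 0.342 and 0.311). TK1, thymidine kinase of the salvage pathway (chr17:78174075-78187233, minus strand), was at 789, 940.2 and 846 in hypoxia cells, against 694, 714 and 700.1 in normoxia cells, with no overlap (0.29 ± 0.08, limma adjusted p = 0.00289). The ratio of TK1 to MCM5 within a library was 1.24, 1.43 and 1.37 in hypoxia cells and 0.716, 0.849 and 0.755 in normoxia cells.

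Of the S-phase control genes, CCNE1 fell by 0.37 on the log2 scale (limma adjusted p = 0.00613), but did not pass with equal totals (limma adjusted p = 0.0841). CCNE2 was at 169, 140.0 and 136 in hypoxia cells and at 95.1, 124 and 148 in normoxia cells, so its groups overlapped (0.29 ± 0.16, limma adjusted p = 0.175). CCNE2 also overlaps antisense genes over 37.1% of its exons. E2F1 was at 354, 347 and 430.1 in hypoxia cells, against 369, 354 and 389.7 in normoxia cells, with a log2 fold change of 0.02 ± 0.10 (limma adjusted p = 0.924). The 95% interval for E2F1 ran from -0.18 to 0.21.

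Promoters were examined because the members share a known regulator and moved together in part. RefSeq promoters (GRCh38.p14) matched 37 members, and the 250 bases before the start were searched on both strands. Forms of the E2F motif searched were TTCCCGC, its variant with a central G (TTCGCGC), the form TTGGCGC and also the form TTGCCGC, which can overlap one another. At least 1 was present in 18 of 37 members (48.6%), against 14.7% of 14988 promoters of protein-coding genes. CCAAT, the box bound by NF-Y, was present in 56.8% of members and 34.7% of all. The CHR letters TTTGAA, typical of genes that peak in mitosis, were in 2.70% of members, in 14 of 25 promoters of mitosis genes and in 10.7% of all. The hypoxia response core ACGTG or GCGTG was in 59.5% of members and 50.9% of all. Windows of 60 bases that lie before the RefSeq start and outside the annotated gene are shown for 4 members, 5′ to 3′ on the gene's strand, with E2F letters in capitals, as examples from the ring, the clamp and the polymerases. The MCM6 capitals hold a pair of overlapping matches, 1 on each strand.
MCM6: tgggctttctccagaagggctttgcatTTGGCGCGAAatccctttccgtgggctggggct
MCM3: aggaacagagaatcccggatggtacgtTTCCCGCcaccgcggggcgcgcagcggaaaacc
PCNA: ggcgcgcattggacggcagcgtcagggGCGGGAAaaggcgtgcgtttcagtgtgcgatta
POLA1: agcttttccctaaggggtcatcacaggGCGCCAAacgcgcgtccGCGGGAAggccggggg
The MCM6 window lies at chr2:135876562-135876621 and the MCM3 window at chr6:52284883-52284942, both on the minus strand. The PCNA window lies at chr20:5126649-5126708 on the minus strand and the POLA1 window at chrX:24693754-24693813 on the plus strand. The letters did not sort the members by their response in cells: 10 of 18 members with E2F letters were lower and 1 higher, with a median of -0.22, and 10 of 19 without them were lower and 1 higher, with a median of -0.23. The search took exact letters before 1 RefSeq start per gene. Among members with the letters, those bases lie wholly inside the annotated gene for CDT1, GINS2, LIG1, MCM7, RFC4 and RPA1. Among members without them, the same holds for CDC45, FEN1, GINS3, POLD2, RFC5 and RRM2. For others, such as CDC6 and POLE2, the bases lie partly inside. A member without the letters was therefore not shown to lack E2F control, and the split cannot tell whether E2F control goes with the response. MCM6 and MCM3 were lower in cells, PCNA too, and POLA1 was at 0.14 ± 0.07.

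Outside the 45 members, 52 other replication genes gave 23 lower and 3 higher in hypoxia cells (44.2% and 5.77%), with a median of -0.18, against 36.2% and 7.65% of the protein-coding genes of mean at least 100. PCLAF, a PCNA-binding protein, fell by 0.62 on the log2 scale, DUT, which removes dUTP, fell by 0.57, and CCNA2, the S-phase cyclin, fell by 0.45. TICRR, which helps origins to fire, rose by 0.27, and FBXO5, an inhibitor of the anaphase-promoting complex, rose by 0.29.

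EVs and cells held the replication mRNAs in different proportions. Over both oxygen conditions, 30 of 44 members were lower in EVs than in cells and 2 were higher, with a median log2 fold change of -0.93. Of all 24171 genes tested, 31.8% were lower and 43.1% higher (limma), with a median of 0.32. Of 10259 protein-coding genes of mean at least 100, 6159 (60.04%) were lower and 1937 (18.88%) higher, with a median of -0.63. The members' shares were 68.18% lower and 4.55% higher. Their lower share thus lay near that of these protein-coding genes, and the gaps between the shares were not tested. By role, 11 of 17 licensing and helicase genes, 15 of 20 clamp, polymerase and lagging-strand genes, 3 of 4 nucleotide supply genes and 1 of 3 S-phase control genes were lower. The members were not lower as a block: values ran from -2.72 for POLE2, a gene near background in EVs, and -2.19 for RRM1 to 1.39 for LIG1. With background removed, POLE2 was at -5.13, PRIM2 at -3.06 and CCNE2 at -2.38, values that depend on the pseudocount because little signal was left. The 6 EV libraries and the 6 cell libraries did not overlap for 22 members on the lower side and 1 on the higher side, against 21.3% and 19.8% of all genes. With equal totals 30 members were lower and 6 higher. The shares above are on the deposited scale, so these 2 counts have no matching share of all genes. EV background, depth and the construct genes (21.7% of reads in hypoxia EVs, 23.5% in normoxia EVs, 7.09% in hypoxia cells and 6.13% in normoxia cells) moved with this comparison, and their part in it was not tested.

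The MCM ring, whose 6 subunits are needed in equal numbers, was split in EVs. MCM6 was at 318, 279 and 401 in hypoxia EVs and at 871, 778 and 471 in normoxia EVs, against 1759, 1681 and 1637 in hypoxia cells and 2282, 2307 and 2433 in normoxia cells. Every EV library lay below every cell library, with a log2 fold change of -2.07 ± 0.14 (limma adjusted p = 7.32e-11). MCM4 was at 1389, 1331 and 1389.6 in hypoxia EVs and at 2740.3, 2371 and 1439 in normoxia EVs, against 5395, 5409 and 5161 in hypoxia cells and 6015, 5991 and 6637 in normoxia cells. It too stood apart, at -1.76 ± 0.13 (limma adjusted p = 2.46e-10). MCM5 was at 1456, 1280.4 and 1064 in hypoxia EVs and at 2103, 2005 and 1585 in normoxia EVs, against 1382, 1428 and 1337 in hypoxia cells and 2103, 1824 and 2013 in normoxia cells. Its EV and cell libraries overlapped, at -0.10 ± 0.11 (limma adjusted p = 0.386). MCM2, which overlaps antisense genes over 23.6% of its exons, did not pass either, at 0.16 ± 0.12, while MCM3 and MCM7 fell by 0.43 and 0.49 on the log2 scale with overlapping libraries. With normoxia libraries only, MCM3 and MCM7 did not pass. The ratio of MCM6 to MCM2 within a library ran from 0.0896 to 0.166 in EVs and from 0.536 to 0.636 in cells, and that of MCM4 to MCM2 from 0.342 to 0.514 in EVs and from 1.35 to 1.65 in cells. The ratio of MCM5 to MCM2 ran from 0.359 to 0.474 in EVs and from 0.463 to 0.557 in cells.

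**Figure D2:**
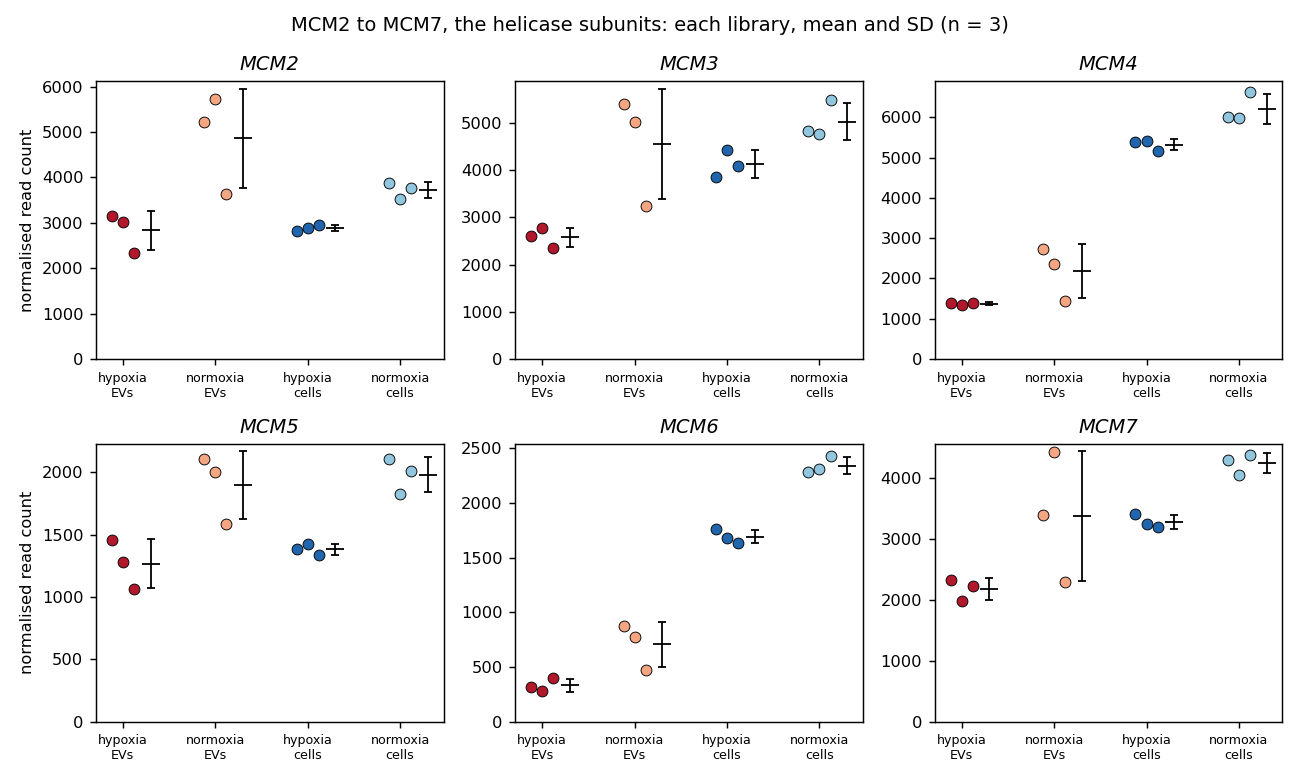
Normalised read counts of MCM2 to MCM7 in each library (points) with the mean and SD of each group of 3, for hypoxia EVs, normoxia EVs, hypoxia cells and normoxia cells. MCM4 and MCM6 sit far lower in EVs than in cells, MCM2 and MCM5 overlap between EVs and cells, and hypoxia cells lie below normoxia cells in all 6 panels.

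Beside MCM6 and MCM4, the members with the most negative fold changes in EVs included subunits of polymerase epsilon, the primase, the clamp loader, RPA and ribonucleotide reductase. POLE2 was at 25.4, 25.9 and 20.2 in hypoxia EVs and at 47.6, 9.01 and 33.2 in normoxia EVs, against 124, 119 and 160.0 in hypoxia cells and 236, 202 and 178 in normoxia cells. These EV values rest on 5 to 20 reads a library, and the olfactory receptor density alone would give 108% of the POLE2 level in hypoxia EVs and 45.5% in normoxia EVs. POLE2 was therefore not detectable above background in hypoxia EVs, and its log2 fold change of -2.72 ± 0.32 depends on that background. PRIM2 was at 62.8, 77.6 and 78.2 in hypoxia EVs and at 88.0, 75.7 and 52.8 in normoxia EVs, against 375, 335 and 344 in hypoxia cells and 383, 380.3 and 334 in normoxia cells, at -2.31 ± 0.16. Background would give 55.1% of the PRIM2 level in hypoxia EVs and 22.5% in normoxia EVs. PRIM1 was at 70.8, 83.7 and 124 in hypoxia EVs and at 133, 142 and 117 in normoxia EVs, against 347, 388 and 392 in hypoxia cells and 440.3, 485 and 457 in normoxia cells. Both primase subunits were thus lower in every EV library than in any cell library, though PRIM1 overlaps other genes on the same strand over up to 16.2% of its exons.

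RRM1, the large subunit of ribonucleotide reductase, was at 362, 490.2 and 315 in hypoxia EVs and at 659, 709.8 and 479 in normoxia EVs, against 2067, 2069 and 2059 in hypoxia cells and 2290.2, 2320.2 and 2485 in normoxia cells. RRM2 was at 645, 509 and 487 in hypoxia EVs and at 1016, 782 and 665 in normoxia EVs, against 1837, 1967 and 2034 in hypoxia cells and 2509, 2445 and 2611 in normoxia cells. Both stood apart, at -2.19 ± 0.12 for RRM1 and -1.74 ± 0.11 for RRM2. RFC3 was at 139, 111 and 126 in hypoxia EVs and at 209, 160.3 and 127 in normoxia EVs, against 573, 510.3 and 624 in hypoxia cells and 684, 709 and 781 in normoxia cells (-2.16 ± 0.14). RFC4 was at 178, 166 and 217 in hypoxia EVs and at 343, 324 and 186 in normoxia EVs, against 813, 879 and 750.0 in hypoxia cells and 756, 896 and 1006 in normoxia cells (-1.90 ± 0.15). RFC2 of the same loader was at -0.29 ± 0.12 and lost its call in 10 alternatives, and the ratio of RFC3 to RFC2 ran from 0.143 to 0.251 in EVs and from 0.576 to 0.783 in cells. RPA2 was at 119, 107 and 136 in hypoxia EVs and at 252, 166 and 244 in normoxia EVs, against 522, 547 and 496 in hypoxia cells and 575, 646 and 613 in normoxia cells (-1.80 ± 0.14).

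PCNA was at 448, 378 and 494 in hypoxia EVs and at 852, 627 and 399 in normoxia EVs, against 1283, 1199.7 and 1305 in hypoxia cells and 1659, 1629 and 1815 in normoxia cells. It was lower in every EV library, at -1.52 ± 0.14 (limma adjusted p = 1.29e-08). CDC6 was at 426, 368 and 434 in hypoxia EVs and at 1006, 643 and 588 in normoxia EVs, against 1459, 1395 and 1428 in hypoxia cells and 1312, 1395 and 1359 in normoxia cells (-1.35 ± 0.12). CCNE2 was at 40.1, 67.0 and 98.4 in hypoxia EVs and at 64.2, 48.6 and 35.2 in normoxia EVs, against 169, 140.0 and 136 in hypoxia cells and 95.1, 124 and 148 in normoxia cells. The highest CCNE2 value of an EV library exceeded the lowest of a cell library, and background would give 61.9% of its level in hypoxia EVs. E2F1 was at 342, 426 and 421 in hypoxia EVs and at 530.5, 506 and 426 in normoxia EVs, against 354, 347 and 430.1 in hypoxia cells and 369, 354 and 389.7 in normoxia cells, and it did not pass (0.23 ± 0.12, limma adjusted p = 0.0884).

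LIG1 stood alone among the members in its size on the higher side. It was at 2331, 2710.0 and 1702 in hypoxia EVs and at 5685, 4282 and 3356 in normoxia EVs, against 1151, 1395 and 1319 in hypoxia cells and 1078, 1113 and 1067 in normoxia cells. The lowest EV library exceeded the highest cell library, and the log2 fold change was 1.39 ± 0.13 (limma adjusted p = 1.25e-08). The ratio of LIG1 to FEN1, the nuclease that acts just before it, ran from 0.756 to 1.31 in EVs and from 0.399 to 0.545 in cells. MCM10 was the other member called higher, at 0.28 ± 0.10, with overlapping libraries, and its fold change turned to -0.11 with TMM factors. CDT1 (-0.14), FEN1 (0.18), GINS3 (0.25), TK1 (-0.16), CCNE1 (-0.21), GMNN (-0.19), POLD1 (-0.27), POLE (-0.22) and RPA3 (-0.41) did not pass.

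The members differ in base composition, and their difference between EVs and cells moved with it. Across the 44 members, the log2 fold change correlated with the GC content of the coding sequence at a Spearman rho of 0.651 and a Pearson r of 0.632, and with that of the whole principal transcript at a rho of 0.671. Genes are not independent replicates, and all points share the same 12 libraries. Over 10259 protein-coding genes of mean at least 100, rho was 0.592 with coding GC and 0.612 with transcript GC. Transcript length gave a rho of 0.005 over the members. The 22 members with the higher coding GC (above 48.5%) had a median of -0.30, with 12 lower and 1 higher. The 22 with the lower coding GC had a median of -1.40, with 18 lower and 1 higher. Above and below that GC, the protein-coding genes of mean at least 100 had medians of -0.20 and -1.44. With background removed, rho with coding GC was 0.692 over the members.

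Coding windows of 60 bases show the composition of 3 ring subunits and of the members at both ends of the range, POLE2 and LIG1, with G and C in capitals. Each is the first window whose GC content is nearest to that of the whole coding sequence of the GENCODE principal transcript, 5′ to 3′, and positions count from the start codon.
MCM5: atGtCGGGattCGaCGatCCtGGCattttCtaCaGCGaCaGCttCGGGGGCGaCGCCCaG
MCM2: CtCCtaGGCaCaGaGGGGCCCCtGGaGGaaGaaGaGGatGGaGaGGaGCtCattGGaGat
MCM6: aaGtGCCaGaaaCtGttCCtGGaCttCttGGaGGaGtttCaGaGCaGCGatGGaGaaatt
POLE2: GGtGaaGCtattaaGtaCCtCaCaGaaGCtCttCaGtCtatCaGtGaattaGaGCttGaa
LIG1: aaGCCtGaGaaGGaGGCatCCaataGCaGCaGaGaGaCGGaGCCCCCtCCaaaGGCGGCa
The MCM5 window covers coding bases 1 to 60 and the MCM2 window bases 166 to 225, with 59.9% and 59.1% GC in their whole coding sequences. The MCM6 window covers bases 73 to 132 of a coding sequence of 46.2% GC, and the POLE2 window bases 67 to 126 of one of 40.7% GC. The LIG1 window covers bases 55 to 114 of a coding sequence of 60.3% GC. Composition did not order all members: MCM4, with 50.1% GC, was at -1.76 ± 0.13, POLD2, with 59.4% GC, was at -1.50 ± 0.14, and GMNN, with 39.8% GC, was at -0.19 ± 0.14.

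**Figure D3:**
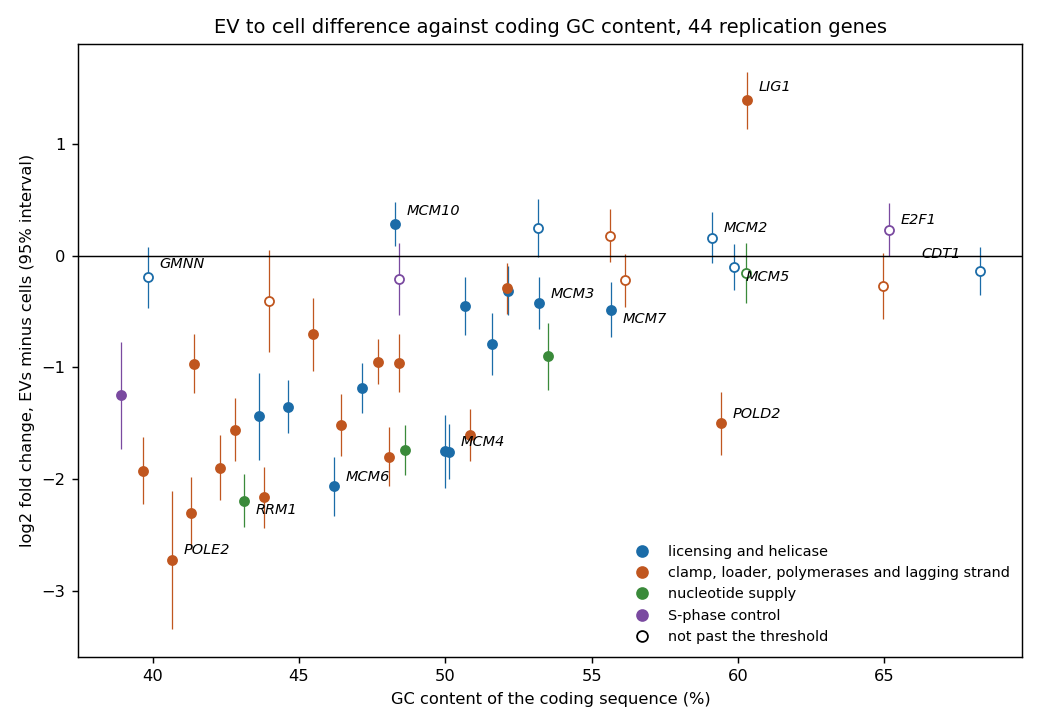
Log2 fold change of EVs minus cells (vertical, with 95% intervals) against the GC content in percent of the coding sequence (horizontal) for 44 replication genes, coloured by role; open points did not pass the test. Members of low GC content sit lower, with POLE2 at the bottom left and LIG1 at the top right, while POLD2 and GMNN lie away from the trend.

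Of the 52 other replication genes, 44 were lower in EVs than in cells and 4 were higher, with a median of -1.43, against 6159 lower and 1937 higher of the 10259 protein-coding genes. DNMT1, which copies DNA methylation at the fork, was at 1.20 ± 0.11.

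Between hypoxia EVs and normoxia EVs, 10 of 44 members were lower and none was higher. The median over the members was -0.58, against 0.60 over all 27904 genes tested, of which 6.62% were lower and 5.68% higher (limma). Among 10221 protein-coding genes of mean at least 100, 16.9% were lower and 6.31% higher, with a median of -0.38. The 10 members were 6 of licensing and the helicase (MCM2, MCM3, MCM6, MCM10, CDC6 and CDT1), 3 of the fork (POLA1, RFC5 and LIG1) and TK1. No member was higher by limma, edgeR or DESeq2, and none reached an unadjusted p of 0.05 on that side. The deposited values sum to far less in hypoxia EVs, and with equal totals, which put the median of all genes at 1.21, no member passed and the members' median was -0.01. Leaving out normoxia EVs replicate 3 gave 29 lower, while leaving out any of the other 5 EV libraries gave 0. These counts were not set against the share of all genes called in the same fits.

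POLA1, the catalytic subunit of the primer-making polymerase (chrX:24693919-24996986, plus strand), was at 313, 326 and 275 in hypoxia EVs, against 711, 872 and 416 in normoxia EVs, without overlap (-1.07 ± 0.27, limma adjusted p = 0.022). MCM6, given above, had hypoxia EV libraries of 279 to 401 and normoxia EV libraries of 471 to 871 (-1.05 ± 0.26, limma adjusted p = 0.0213). LIG1, also given above, had its highest hypoxia EV library at 2710.0 and its lowest normoxia EV library at 3356 (-0.97 ± 0.24, limma adjusted p = 0.0201). In these 3 genes normoxia EVs replicate 3 was the normoxia library nearest to hypoxia. CDT1 was at 1082, 1047 and 847 in hypoxia EVs, against 1993, 1735 and 1370.1 in normoxia EVs (-0.77 ± 0.22, limma adjusted p = 0.0299). CDC6 was at -0.83 ± 0.25 and had groups apart. MCM3 was at 2606, 2774 and 2363 in hypoxia EVs, against 5414, 5034 and 3239 in normoxia EVs (-0.79 ± 0.23, limma adjusted p = 0.0317). For CDC6 and CDT1 the difference from the response in cells did not pass (limma adjusted p = 0.0551 and 0.0809).

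MCM2 was at 3146, 3013 and 2340.4 in hypoxia EVs, against 5214, 5724 and 3641 in normoxia EVs (-0.76 ± 0.23, limma adjusted p = 0.0355). MCM10 was at 1843, 1582 and 1889 in hypoxia EVs, against 3052, 3349 and 2455 in normoxia EVs (-0.73 ± 0.21, limma adjusted p = 0.0323). RFC5 was at 370.0, 304 and 351 in hypoxia EVs, against 549, 589 and 616 in normoxia EVs (-0.78 ± 0.24, limma adjusted p = 0.039). Hypoxia libraries lay below normoxia libraries in all 3. TK1 passed with overlapping groups, at 458, 646 and 474 in hypoxia EVs and 1089, 1148 and 645 in normoxia EVs (-0.84 ± 0.25, limma adjusted p = 0.035). Groups did not overlap for 18 members, all on the lower side, against 14.5% of all genes. MCM5 (-0.58 ± 0.21), PCNA (-0.45 ± 0.26), RRM2 (-0.57 ± 0.23), E2F1 (-0.30 ± 0.24), POLE2 (-0.05 ± 0.89) and CCNE2 (0.41 ± 0.58) did not pass, the last 2 with intervals too wide to show a change of the size seen in cells. With background removed, POLE2 was at -2.93 ± 1.70, CCNE2 turned to -0.67 ± 1.13 and PRIM2, at 0.04 ± 0.49 before, turned to -0.71 ± 0.77, none of which passed.

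The hypoxia responses of EVs and cells were compared directly in a single fit. The difference, the EV response minus the cell response, passed for 3 members, all negative: LIG1 at -1.22 ± 0.26 (limma adjusted p = 0.0243), POLA1 at -1.21 ± 0.29 (limma adjusted p = 0.0354) and TK1 at -1.13 ± 0.28 (limma adjusted p = 0.0394). Of all 24171 genes, 1.87% were negative and 0.443% positive. LIG1 and TK1 were higher in hypoxia cells and lower in hypoxia EVs, each against its own normoxia group. POLA1 was at 1521, 1312 and 1264 in hypoxia cells and at 1191, 1309 and 1209 in normoxia cells, and had not passed there; it passed as higher in hypoxia cells with equal totals (0.27, limma adjusted p = 0.00313) and with TMM factors (0.19, limma adjusted p = 0.0292). CDC6 was next at -0.90 ± 0.24 (limma adjusted p = 0.0551). No member was positive by limma, edgeR or DESeq2, and none reached an unadjusted p of 0.05 on that side. With equal totals, 1 member remained past the threshold, LIG1 at -0.77, and the median over the members moved to 0.07, against -0.37. Without normoxia EVs replicate 3 the count was 21, and without any single cell library or hypoxia EVs replicate 3 it was 0. Here too the counts were not set against the share of all genes in the same fits.

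**Figure D4:**
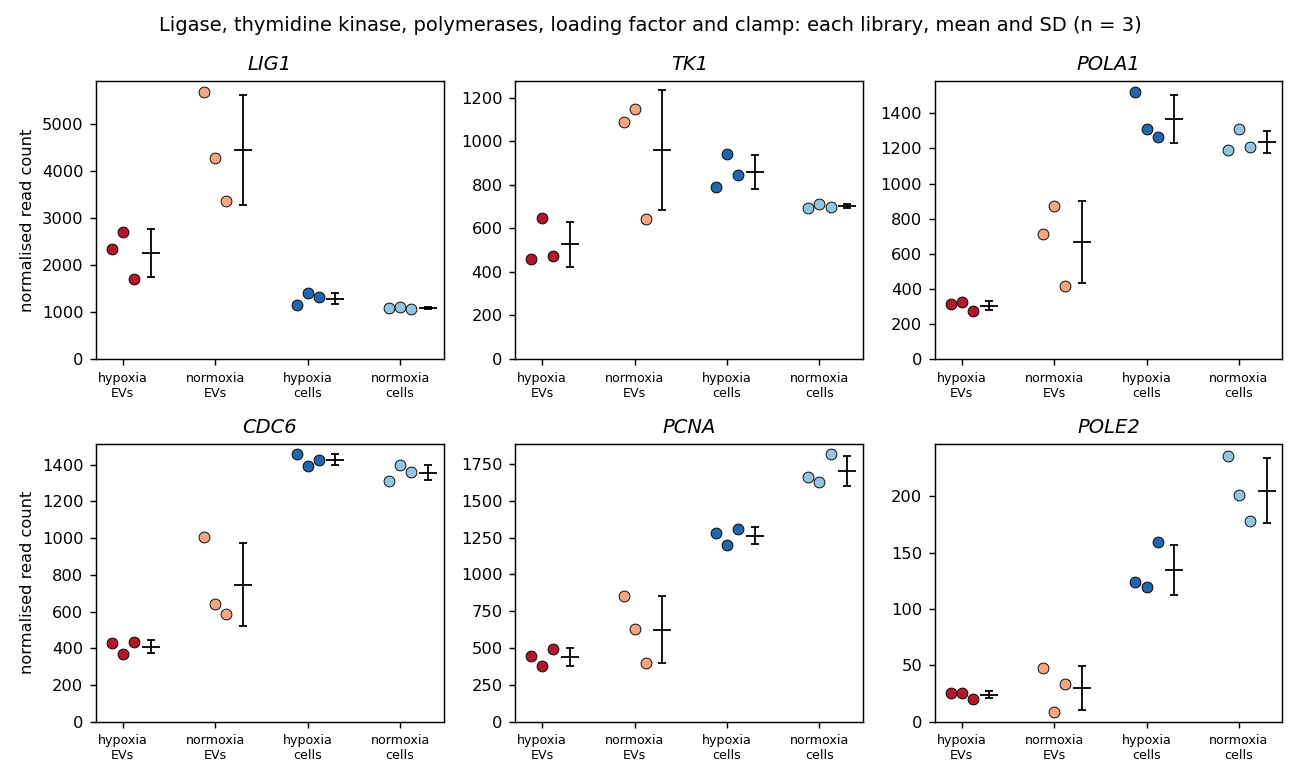
Normalised read counts of LIG1, TK1, POLA1, CDC6, PCNA and POLE2 in each library (points) with the mean and SD of each group of 3, for hypoxia EVs, normoxia EVs, hypoxia cells and normoxia cells. LIG1 is higher in EVs than in cells, LIG1 and TK1 are lower in hypoxia EVs and higher in hypoxia cells than in their normoxia groups, and POLE2 in EVs lies between 9.01 and 47.6.

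Other pairs, also chosen after their values were seen and given without a test, were as follows. The ratio of RRM1 to TK1 ran from 0.320 to 0.418 in EVs and from 1.16 to 1.88 in cells. In cells that ratio was 1.39, 1.16 and 1.29 in hypoxia, against 1.75, 1.72 and 1.88 in normoxia, without overlap. The ratio of CCNE2 to CCNE1 overlapped between EVs (0.0767 to 0.314) and cells (0.193 to 0.425), and was 0.425, 0.321 and 0.324 in hypoxia cells and 0.193, 0.231 and 0.248 in normoxia cells. The ratio of LIG1 to MCM5 was 1.67, 2.21 and 1.67 in hypoxia EVs and 2.82, 2.23 and 2.21 in normoxia EVs, against 0.870, 1.02 and 1.03 in hypoxia cells and 0.535, 0.637 and 0.554 in normoxia cells.

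**Figure D5:**
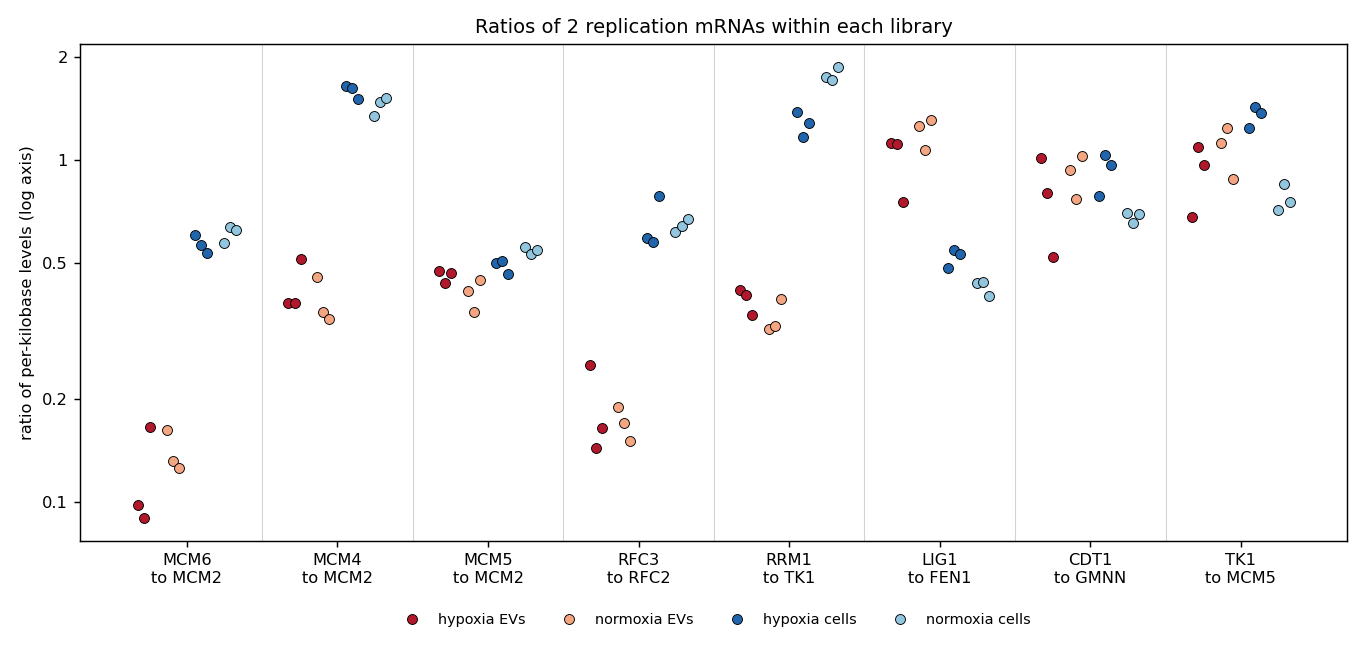
Ratio of the per-kilobase levels of 2 replication mRNAs within each library (points, log axis) for 8 pairs in hypoxia EVs, normoxia EVs, hypoxia cells and normoxia cells. MCM6 to MCM2, MCM4 to MCM2, RFC3 to RFC2 and RRM1 to TK1 are lower in every EV library than in any cell library, LIG1 to FEN1 is higher, and TK1 to MCM5 is higher in hypoxia cells than in normoxia cells.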

How the data were processed

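The table holds gene values that the authors normalised: Bowtie 0.12.2, DESeq2 1.30.1 and hg38 (GRCh38) appear, without settings, among the submitters' processing notes. The deposited signal is reads divided by 1 factor per library, and 100% of values returned whole reads (tolerance 0.01). RNA libraries were stranded total RNA, per the labels' protocols; whether counting used strand is not stated. Gene names, lengths and coordinates came from GENCODE (52338 of 57773 IDs matched).

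Tests were limma 3.58.1 with a trend on log2(value + 1), for genes of mean at least 10, with Benjamini-Hochberg adjustment over all genes and a threshold of 0.05; fold changes on this scale understate low genes. Alternatives were edgeR 4.0.16 on recovered reads (3843 lower and 1353 higher genes in cells, 1962 and 1242 in EVs, 7467 and 10974 for EVs minus cells, 663 and 146 for the difference), DESeq2 1.42.0, other pseudocounts, filters and scalings, removal of the olfactory receptor background, the replicate number as a block, and leaving out each library. Errors are SE for fold changes and SD for levels. Replicates all differed by more than sampling noise (chi-square over its degrees of freedom, 5.27 to 14.8). The limma and edgeR steps were tested on simulated counts. Members and lists were chosen with earlier results of these data known. Printed by library are up to 10 members a comparison that passed, had groups apart and the largest absolute fold change less 1.96 SE, plus MCM5, CDC6, PCNA, POLE2, RRM2, CCNE2 and E2F1; LIG1, TK1 and POLA1 were added after their values were seen.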

Additional observations from a re-analysis of the deposited data

Results flagged for a closer look

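LIG1, the lagging-strand ligase, had a hypoxia response that differed between EVs and cells by -1.22 on the log2 scale (SE 0.26, limma interaction test, adjusted p = 0.0243). LIG1 was at 2248 ± 509 in hypoxia EVs and 4441 ± 1173 in normoxia EVs, and at 1288 ± 125 in hypoxia cells and 1086 ± 23.8 in normoxia cells (SD, n = 3 each).

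POLA1, of the primer-making polymerase, differed by -1.21 (SE 0.29, limma adjusted p = 0.0354), with 304 ± 26.4 in hypoxia EVs and 667 ± 231 in normoxia EVs, and 1366 ± 137 in hypoxia cells and 1236 ± 63.6 in normoxia cells. TK1, thymidine kinase, differed by -1.13 (SE 0.28, limma adjusted p = 0.0394), with 526 ± 104 in hypoxia EVs and 961 ± 275 in normoxia EVs, and 858 ± 76.3 in hypoxia cells and 703 ± 10.1 in normoxia cells. Over 23 alternatives, leave-one-out fits included, the difference ran from -1.40 to -0.67 for LIG1, from -1.51 to -0.77 for POLA1 and from -1.39 to -0.59 for TK1. It stayed negative in all of them and lost its call in 9 for LIG1 and in 13 each for POLA1 and TK1. Hypoxia EV libraries had the higher olfactory receptor background and the lower sum of deposited values, and the part of these in the difference was not tested.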

How the results depend on the processing

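In cells, 25 members were lower and 2 higher; with equal totals 16 were lower and 5 higher, with background removed and equal totals (chosen after seeing the data) 15 and 5, and in a fit of all 12 libraries 0 and 0. Leaving out 1 library gave 21 to 24 lower and 0 to 2 higher. In EVs, 10 members were lower; with equal totals the count was 0, with background removed and equal totals 0, in a fit of all 12 libraries 28, and leaving out 1 library 0 to 29. For EVs minus cells, 2 members were higher; 6 were with equal totals, 1 with TMM factors, 6 with background removed and equal totals, 1 with normoxia libraries only, and 2 to 6 when 1 library was left out, while the lower count ran from 29 to 33. MCM10 turned from 0.28 to -0.11 with TMM factors (adjusted p = 0.343). The difference of responses passed for 3 members; 0 did with no filter, 1 with equal totals, 7 with TMM factors, 8 with DESeq2, 5 with background removed, 0 with background removed and equal totals, and 0 to 21 when 1 library was left out. The 29 in EVs, the 6 for EVs minus cells and the 21 for the difference came without normoxia EVs replicate 3, and the 0 higher in cells without hypoxia cells replicate 2. The cause of these shifts was not tested. None of these alternative counts was set against the share of all genes called in the same fit, so they describe the members alone. Other settings, such as pseudocounts of 0.5 or 5 and edgeR, kept these counts within 1.5 times.

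With the replicate number as a block, members lower and higher were 26 and 2 in cells, 19 and 0 in EVs, 29 and 2 for EVs minus cells, and 3 and 0 for the difference. Libraries of the same number did not deviate together (r from -0.12 to 0.06, and 3 of 12 matched best with their own number), and the labels do not say what a number shares, so they were not treated as pairs. Depth limits POLE2, CCNE2 and PRIM2 in EVs, where a library holds 5 to 51 reads of them.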

Other observations

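Other cell cycle lists gave the following. Of 15 genes of CDK inhibitors, D cyclins and the RB family, 6 were lower and 1 higher in hypoxia cells than in normoxia cells, with a median of -0.14. Of protein-coding genes of mean at least 100, 36.2% were lower and 7.65% higher, also with a median of -0.14, so the list's share lies near the background. The D cyclin genes CCND1 and CCND2 fell by 0.56 and 0.49 on the log2 scale (limma adjusted p = 1.73e-09 and 8.12e-10), and CDK4, their partner, fell by 0.43. RBL2, an RB relative that represses E2F targets in resting cells, rose by 0.24. CDKN1A and CDKN1B, which encode CDK inhibitors, were at -0.20 and -0.14 and did not pass.

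Of 30 mitosis genes, 19 were lower in hypoxia cells (63.3%, against 36.2% of those protein-coding genes), with a median of -0.27. CCNB1, the mitotic cyclin, fell by 0.57, and PLK1 fell by 0.48. In hypoxia EVs against normoxia EVs 16 of the 30 were lower (53.3%, against 16.9%). Those calls are on the deposited scale only, and the members' own calls in EVs were lost with equal totals. Over both oxygen conditions 26 of the 30 were lower in EVs than in cells (86.7%, against 6159 of 10259 protein-coding genes), with CDK1 at -2.65 ± 0.14. INCENP, which anchors the Aurora B kinase, was the single mitosis gene called higher in EVs, at 1.83 ± 0.11.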
